A study of Homo sapiens with 12 samples.

Results

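The comparison reported here asks, gene by gene, whether the response of UM-UC9 cells to the drug rosiglitazone differed from the response of UM-UC14 cells to a short hairpin RNA (shRNA) against FABP4. Both are established human urothelial cancer cell lines. All 12 of the 12 arrays of the series enter it, 3 in each of 4 groups. UM-UC9ROSIG were UM-UC9 cells given 1 μM rosiglitazone for 24 h, UM-UC9CONT were control UM-UC9 cells, UM-UC14FABP4KD were UM-UC14 cells carrying FABP4 shRNA, and UM-UC14NT were UM-UC14 cells carrying a non-targeting shRNA. All were grown in the same serum-containing medium, and all UM-UC14 cells carried a hairpin while no UM-UC9 cells did. The labels do not state whether the UM-UC9 controls received a vehicle, how many hairpins were used, or whether the shRNA cells were a clone or a pool.

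For each gene the drug change (UM-UC9ROSIG minus UM-UC9CONT) and the shRNA change (UM-UC14FABP4KD minus UM-UC14NT) were taken on the log2 scale, and the shRNA change was subtracted from the drug change. A positive difference therefore means that a gene went further up, or less far down, with rosiglitazone than with FABP4 shRNA, and a difference of 1 log2 unit is 2-fold. The 2 manipulations move FABP4 in opposite directions. They also differ in cell line, agent and exposure, and these cannot be told apart in the difference. The labels do not say whether the 3 arrays of a group came from separate cultures, so p-values measure the spread between these samples, which may be technical.

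Rosiglitazone is a thiazolidinedione that binds and activates PPARG, a nuclear receptor that pairs with the retinoid X receptor on DNA and switches on genes of fatty acid uptake, storage and oxidation. In urothelium PPARG is also known for its part in luminal differentiation. FABP4, fatty acid binding protein 4, is a small cytosolic carrier of fatty acids and a long-known PPARG target gene in fat cells.

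The arrays detected 20892 to 22407 of 47323 probes above their negative controls, and arrays of one group correlated at 0.984 to 0.997 over 12 pairs. Of the 16 tested epithelial and urothelial markers, EPCAM, CDH1, KRT7, KRT8, KRT18, KRT19, GATA3 and ELF3 were among those detected on all 12 arrays. 5 of 9 fibroblast markers, 4 of 13 blood and endothelial markers and 3 of 7 adipocyte markers had no probe that passed detection, while LUM, CD68, PECAM1, CFD, LEP and LIPE were detected on all 12 arrays. Non-targeting array A stood apart from its group. It correlated at 0.989 with the mean of the UM-UC14FABP4KD arrays, against 0.980 for each of arrays B and C. The fits by gene and the counts by list were therefore recomputed with array A as the only UM-UC14 control and with arrays B and C as the only controls, and with array A alone the single control was taken to vary like the other groups.

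The 2 responses differed for a large share of the expressed genes. Of 13293 genes tested, 5520 (41.5%) had a difference with a Benjamini-Hochberg adjusted p below 0.05 in limma. These were 2539 genes (19.1%) with a positive and 2981 (22.4%) with a negative difference, and 6640 genes had an unadjusted p below 0.05. A difference of at least 2-fold was found for 1558 of the called genes (11.7% of all tested), 848 positive and 710 negative. The median difference over all genes was -0.04, with a median SE of 0.17.

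The choice of non-targeting array moved the number of calls but turned no called gene round. With array A alone 4684 genes (35.2%) were called, and with arrays B and C alone 6753 (50.8%). Called in the same direction under all 3 controls were 3910 genes (29.4%), 1843 positive (13.9%) and 2067 negative (15.5%). They are 70.8% of the 5520. Of the rest, 1525 lost the call with array A alone and 101 with arrays B and C alone.

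The single comparisons show how the differences arose. Among the 5520 genes, 2421 were called with the drug and not with the shRNA, 1352 with the shRNA and not with the drug, 67 with both in the same direction and 490 with neither. Another 1190 genes (8.95% of all tested) were called in opposite directions, 530 up with rosiglitazone and down with FABP4 shRNA and 660 the other way. That number was 610 with array A alone and 2155 with arrays B and C. For background, 4789 genes (36%) were called with rosiglitazone and 3502 (26.3%) with FABP4 shRNA. Across genes the drug and shRNA changes correlated at r = -0.27, at -0.10 with array A alone and at -0.31 with arrays B and C. This is a description over genes, which are not replicates. The 2 changes share no array.

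**Figure D1:**
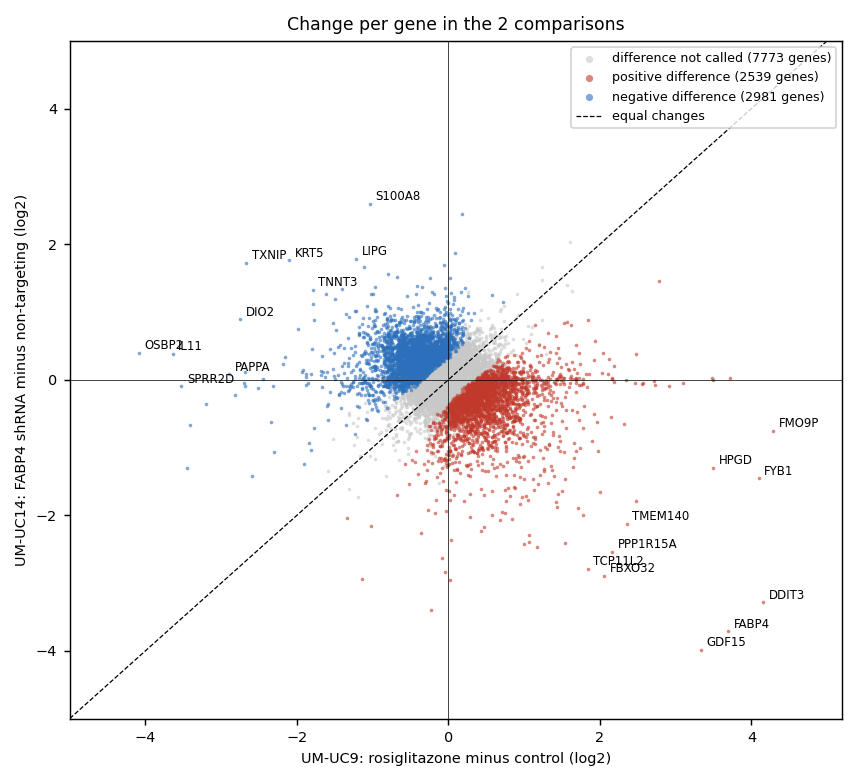
Each point is one of the 13293 genes, with the drug change in UM-UC9 on the horizontal axis and the shRNA change in UM-UC14 on the vertical axis, both in log2 units. Genes far below the dashed line of equal changes have positive differences (2539 called, red) and genes far above it negative ones (2981 called, blue). DDIT3, FABP4 and GDF15 lie alone at the lower right.

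FABP4 itself, the gene that both manipulations act on, had the second largest positive difference. FABP4 measured 14.61, 14.71 and 14.66 on the UM-UC9ROSIG arrays and 11.06, 11.01 and 10.82 on the UM-UC9CONT arrays, and 10.36, 10.13 and 10.50 on the UM-UC14FABP4KD arrays and 13.94, 14.13 and 14.06 on the UM-UC14NT arrays, all values here being normalized log2 intensities. It was higher on every UM-UC9ROSIG array than on any UM-UC9CONT array, and lower on every UM-UC14FABP4KD array than on any UM-UC14NT array. The changes were 3.69 with the drug and -3.71 with the shRNA, and the difference was 7.40 (SE 0.16, limma adjusted p = 2.94e-12). FABP4 in the control UM-UC9 cells stood near its level in the UM-UC14 knockdown cells, and the same probe was used for both. PPARG, the receptor, measured 14.22 to 14.27 on the UM-UC9ROSIG arrays and 14.67 to 14.78 on the UM-UC9CONT arrays, and 12.43 to 12.56 on the UM-UC14FABP4KD arrays and 12.45 to 12.96 on the UM-UC14NT arrays. Its difference by this probe was -0.26 (SE 0.16, limma adjusted p = 0.223), with a 95% interval of -0.60 to 0.09, and -0.52 (adjusted p = 0.00755) with array A alone. 3 other PPARG probes gave -1.03, -0.42 and -1.18, the first and last of them called, so the probes disagreed on its size.

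The 10 largest positive differences called under all 3 controls were DDIT3, FABP4, GDF15, FYB1, FMO9P, FBXO32, HPGD, PPP1R15A, TCP11L2 and TMEM140. All 10 moved in opposite directions in the single comparisons. DDIT3 encodes CHOP, a stress-induced transcription factor. DDIT3 measured 11.01, 10.56 and 11.29 on the UM-UC9ROSIG arrays and 6.83, 6.83 and 6.72 on the UM-UC9CONT arrays, and 8.75, 8.83 and 8.53 on the UM-UC14FABP4KD arrays and 12.14, 12.77 and 11.04 on the UM-UC14NT arrays. Neither cell line's groups overlapped, with changes of 4.16 with the drug and -3.28 with the shRNA. The difference was 7.44 (SE 0.44, limma adjusted p = 1.1e-07). GDF15 is a secreted stress cytokine of the TGF-beta family. GDF15 measured 9.06, 8.52 and 9.25 on the UM-UC9ROSIG arrays and 5.78, 5.46 and 5.59 on the UM-UC9CONT arrays, and 9.51, 9.78 and 9.29 on the UM-UC14FABP4KD arrays and 12.90, 13.87 and 13.77 on the UM-UC14NT arrays. Again the groups of neither line overlapped. The difference was 7.32 (SE 0.34, limma adjusted p = 1.09e-08), and it was 6.70 with array A alone and 7.63 with arrays B and C.

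FYB1, an adaptor protein best known from T cells and platelets, had a difference of 5.55 (SE 0.41, limma adjusted p = 9.33e-07). It stood at 9.26, 9.46 and 9.30 on the UM-UC9ROSIG arrays and 5.41, 5.01 and 5.32 on the UM-UC9CONT arrays. On the UM-UC14FABP4KD arrays it was 8.24, 8.36 and 8.14, against 8.71, 10.18 and 10.22 on the UM-UC14NT arrays, where array A was the closest to the knockdown arrays. FBXO32 (atrogin-1), a ubiquitin ligase subunit known from muscle wasting, had groups well apart in both lines. FBXO32 measured 10.53, 10.25 and 10.66 on the UM-UC9ROSIG arrays and 8.56, 8.30 and 8.42 on the UM-UC9CONT arrays, and 5.05, 5.17 and 5.39 on the UM-UC14FABP4KD arrays and 8.09, 8.02 and 8.18 on the UM-UC14NT arrays. Its difference was 4.95 (SE 0.17, limma adjusted p = 9.9e-10), and 4.94 with array A alone and 4.95 with arrays B and C. HPGD breaks down prostaglandins, and its difference was 4.80 (SE 0.33, limma adjusted p = 4.49e-07). HPGD measured 12.46, 12.41 and 12.52 on the UM-UC9ROSIG arrays and 8.99, 8.92 and 9.01 on the UM-UC9CONT arrays, and 8.71, 8.95 and 8.85 on the UM-UC14FABP4KD arrays and 9.36, 10.66 and 10.39 on the UM-UC14NT arrays. The groups did not overlap in either line, and the UM-UC14 part was smallest against array A.

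PPP1R15A encodes GADD34, the phosphatase subunit that reverses the phosphorylation of eIF2-alpha. PPP1R15A measured 11.04, 10.44 and 11.08 on the UM-UC9ROSIG arrays and 8.67, 8.73 and 8.66 on the UM-UC9CONT arrays, and 8.71, 8.50 and 8.52 on the UM-UC14FABP4KD arrays and 11.06, 11.47 and 10.82 on the UM-UC14NT arrays. The difference was 4.71 (SE 0.25, limma adjusted p = 2.88e-08). TMEM140, a small membrane protein, had a difference of 4.48 (SE 0.21, limma adjusted p = 1.09e-08), with changes of 2.35 with the drug and -2.12 with the shRNA. For FMO9P, a flavin monooxygenase pseudogene, and TCP11L2 some groups were not detected on any array, so their differences are lower bounds. FMO9P was not detected in UM-UC14FABP4KD cells and differed by at least 4.93 log2 units with all 3 non-targeting arrays (limma adjusted p = 9.69e-09). Without that bound its difference was 4.58 with array A alone and 5.28 with arrays B and C, with shRNA changes of -0.29 and -0.99. TCP11L2 was not detected in UM-UC9CONT or in UM-UC14FABP4KD cells and differed by at least 3.89 by the probe used (adjusted p = 6.37e-09). Another TCP11L2 probe gave a smaller difference, 2.51, also called.

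The 10 largest negative differences called under all 3 controls were OSBP2, TXNIP, IL11, KRT5, DIO2, S100A8, SPRR2D, TNNT3, LIPG and PAPPA. OSBP2, an oxysterol-binding protein, led them and owed nearly all of it to the drug. OSBP2 measured 5.21, 5.31 and 5.19 on the UM-UC9ROSIG arrays and 9.21, 9.44 and 9.30 on the UM-UC9CONT arrays, and 9.92, 10.01 and 10.00 on the UM-UC14FABP4KD arrays and 9.59, 9.63 and 9.51 on the UM-UC14NT arrays. The UM-UC9 groups lay about 4 units apart and the UM-UC14 groups were close but did not overlap. The difference was -4.48 (SE 0.13, limma adjusted p = 8.07e-11), and it hardly depended on the control, at -4.46 with array A alone and -4.48 with arrays B and C.

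TXNIP, the thioredoxin-binding arrestin that is switched on by glucose, depended on which non-targeting array was used. TXNIP measured 10.29, 10.45 and 10.45 on the UM-UC9ROSIG arrays and 13.07, 13.10 and 13.02 on the UM-UC9CONT arrays, and 10.11, 9.85 and 10.19 on the UM-UC14FABP4KD arrays and 10.37, 7.09 and 7.51 on the UM-UC14NT arrays. In UM-UC9 the groups were well apart, but non-targeting array A lay above all UM-UC14FABP4KD arrays while arrays B and C lay far below them. The difference was -4.39 (SE 0.81, limma adjusted p = 0.000872), but -2.35 with array A alone and -5.41 with arrays B and C. DIO2, the deiodinase that makes active thyroid hormone, showed the same split. DIO2 measured 5.01, 5.12 and 5.28 on the UM-UC9ROSIG arrays and 7.79, 7.95 and 7.91 on the UM-UC9CONT arrays, and 7.68, 7.56 and 7.67 on the UM-UC14FABP4KD arrays and 8.05, 6.15 and 6.04 on the UM-UC14NT arrays. Its difference was -3.64 (SE 0.52, limma adjusted p = 0.000152), and -2.33 with array A alone and -4.29 with arrays B and C.

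IL11, a cytokine of the interleukin-6 family, had a difference of -4.02 (SE 0.25, limma adjusted p = 1.37e-07), nearly all from the drug. It measured 6.11, 6.59 and 6.29 on the UM-UC9ROSIG arrays and 10.03, 9.86 and 10.02 on the UM-UC9CONT arrays. In UM-UC14 it was near background, detected on all 3 UM-UC14FABP4KD arrays and on 1 UM-UC14NT array. S100A8, a calcium-binding protein of inflamed and squamous epithelium, went the other way in UM-UC14. S100A8 measured 8.19, 7.86 and 7.91 on the UM-UC9ROSIG arrays and 9.17, 8.94 and 8.98 on the UM-UC9CONT arrays, and 8.71, 8.74 and 9.10 on the UM-UC14FABP4KD arrays and 5.73, 6.30 and 6.75 on the UM-UC14NT arrays. The groups overlapped in neither line, and the difference was -3.63 (SE 0.28, limma adjusted p = 1.4e-06). LIPG, endothelial lipase, had a difference of -3.00 (SE 0.24, limma adjusted p = 2e-06) and TNNT3, a troponin T of fast muscle, one of -3.11 (SE 0.20, limma adjusted p = 1.76e-07). TNNT3 was detected on only 1 UM-UC9ROSIG array, so the size of its drug change is limited by background.

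KRT5, the basal cell keratin, was not detected on any UM-UC14NT array, so its difference has only a bound, -3.60 or further from 0 (limma adjusted p = 1.64e-07). KRT5 measured 5.72, 5.14 and 5.97 on the UM-UC9ROSIG arrays and 7.67, 7.90 and 7.56 on the UM-UC9CONT arrays, and 6.33, 6.25 and 6.42 on the UM-UC14FABP4KD arrays and 4.72, 4.49 and 4.50 on the UM-UC14NT arrays. It was lower on every UM-UC9ROSIG array than on any UM-UC9CONT array and higher on every UM-UC14FABP4KD array than on any UM-UC14NT array. SPRR2D, a small proline-rich protein of the cornified envelope, was detected in UM-UC9 cells and in neither UM-UC14 group, so its difference of -3.43 (adjusted p = 1.26e-08) rests on a drug change of -3.53. Its probe may also bind near-identical SPRR2 genes. PAPPA, a protease that frees insulin-like growth factors, was also a difference of the drug arm, at -2.98 (SE 0.18, limma adjusted p = 1.37e-07), with changes of -2.90 with the drug and 0.08 with the shRNA. In UM-UC14 PAPPA was near background, detected on 2 arrays of each group, which limits its shRNA change.

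**Figure D2:**
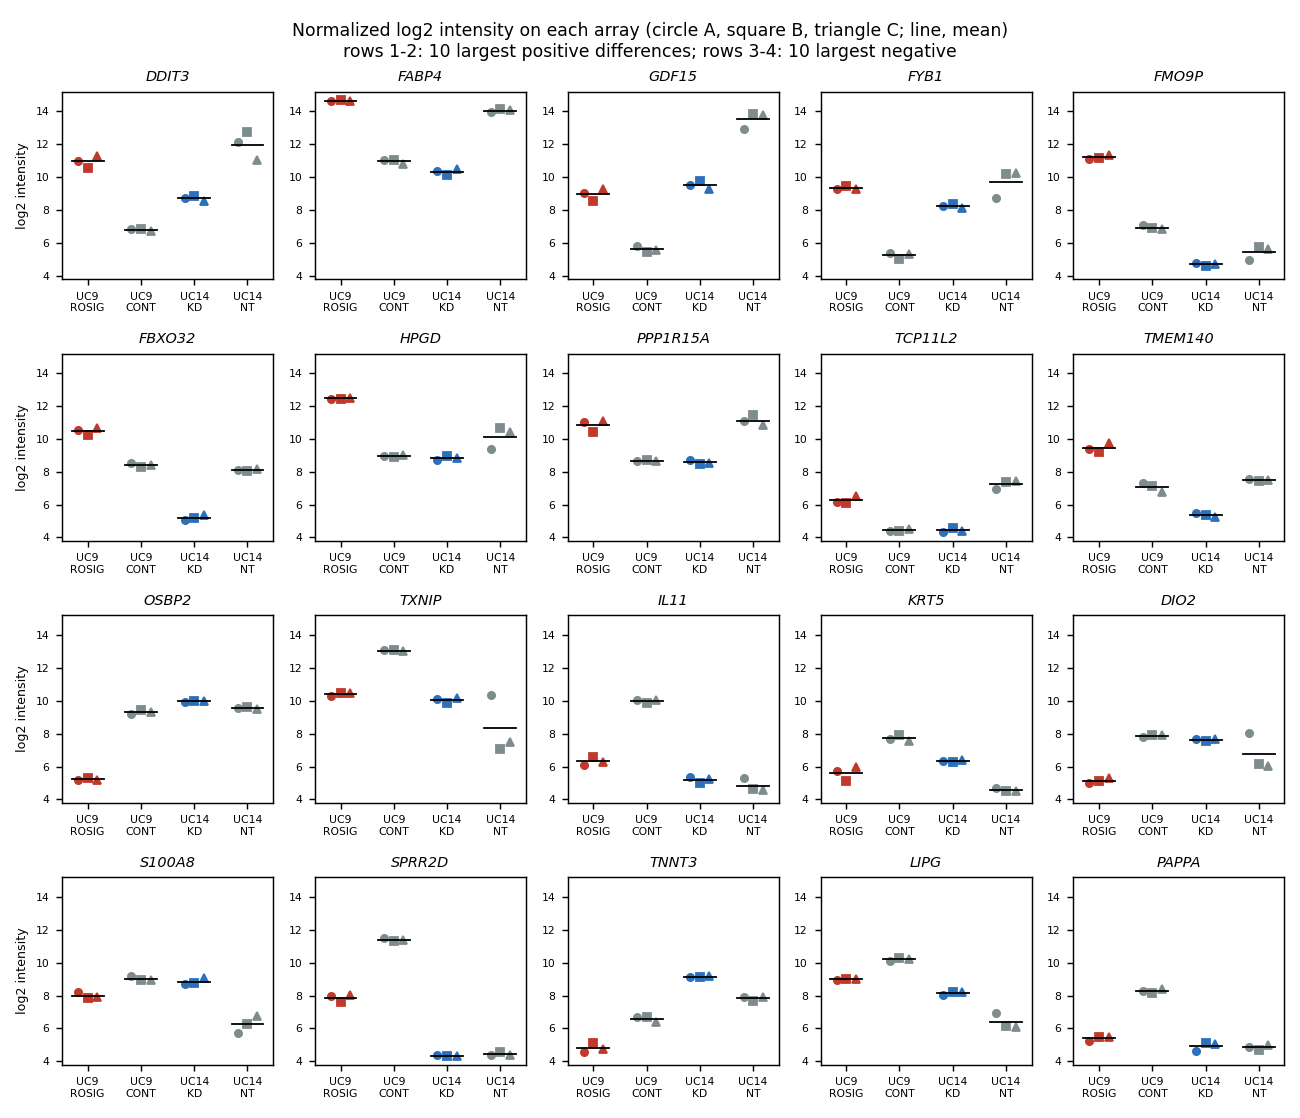
Normalized log2 intensity of the 20 genes on each of the 12 arrays, with UM-UC9ROSIG, UM-UC9CONT, UM-UC14FABP4KD and UM-UC14NT from left to right and a line at each group mean. The upper genes are higher in UM-UC9ROSIG than in UM-UC9CONT and lower in UM-UC14FABP4KD than in UM-UC14NT. TXNIP and DIO2 show non-targeting array A far above arrays B and C.

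**Figure D3:**
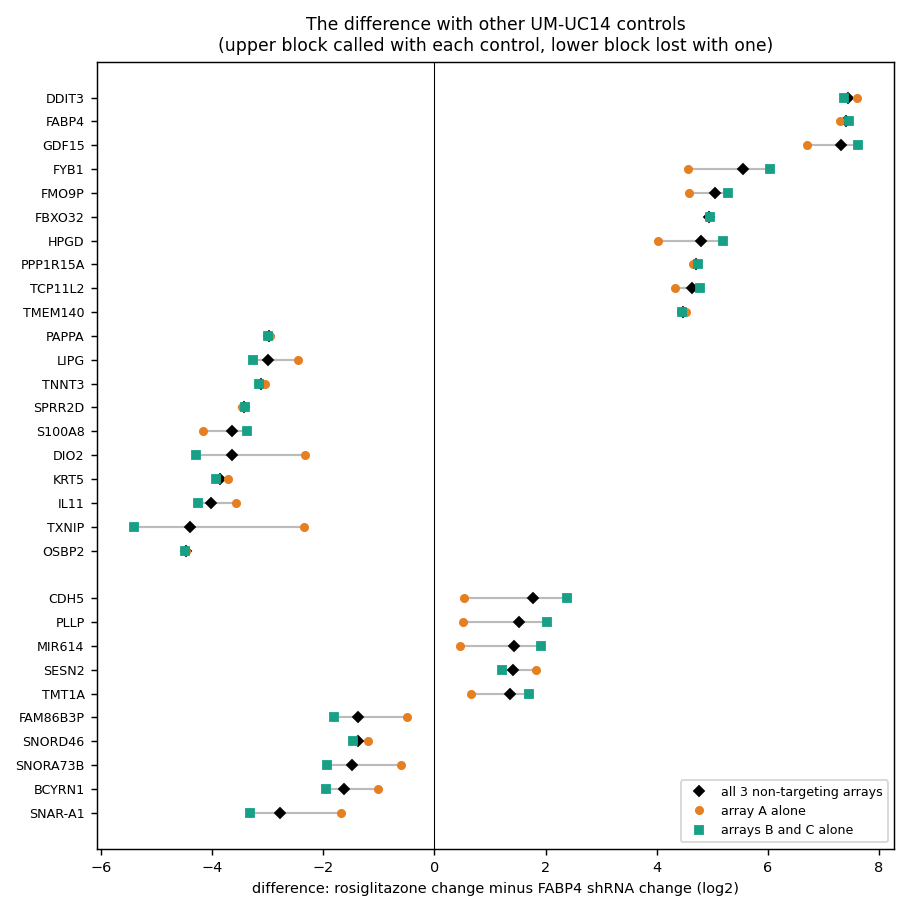
The difference of each gene in log2 units with all 3 non-targeting arrays (black), array A alone (orange) and arrays B and C alone (green). The upper 20 genes were called with each control, TXNIP and DIO2 being the most spread, and the lower 10 lost the call with one control.

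Large differences that did not pass under every control were named as well. Of the positive ones, CDH5 (vascular endothelial cadherin) was not detected in UM-UC9 and differed by 1.77, but by 0.54 with array A alone. PLLP, MIR614 and TMT1A likewise lost the call with array A alone. SESN2, a stress-induced inhibitor of mTORC1, lost it with arrays B and C alone (adjusted p = 0.0855). It measured 6.66, 6.43 and 6.43 on the UM-UC14FABP4KD arrays and 7.14, 7.61 and 5.43 on the UM-UC14NT arrays, array C being the lowest of these 6. Of the negative ones, SNAR-A1, BCYRN1, SNORA73B, SNORD46 and FAM86B3P lost the call with array A alone. These are mostly small non-coding RNAs with near-identical copies, so their probes may read several genes.

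For genes grouped by pathway, 886 genes in 27 lists were followed, of which 753 were tested. Counts of members called are set beside the shares over all tested genes, 19.1% positive and 22.4% negative, and medians beside the median of all genes, -0.04. When arrays were scaled to a common median in place of quantile normalization, the median of all genes moved to -0.15 and the share of called genes that were positive to 33.1%, against 46.0%. Relative to the median of all genes, the median of only 1 of the 23 pathway lists changed side, that of cholesterol synthesis and uptake, which lay at the median of all genes to begin with.

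**Figure D4:**
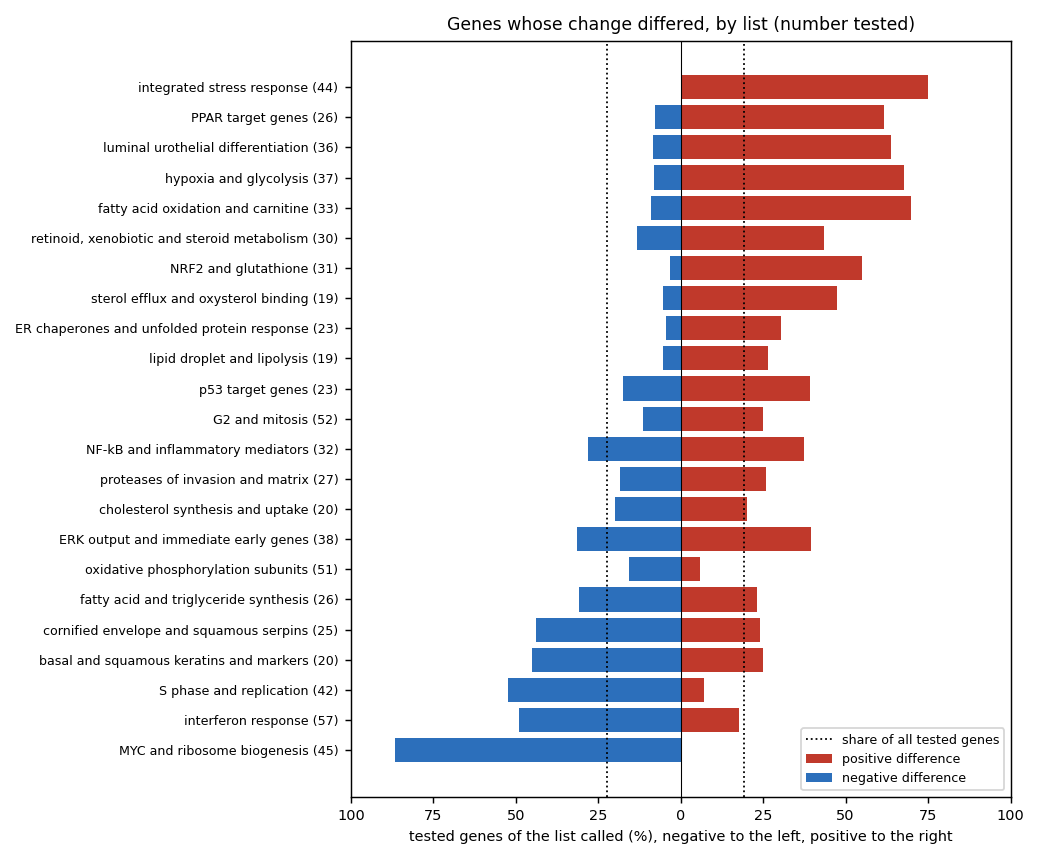
Share of each list's tested genes called with a positive (red, right) or negative (blue, left) difference, with the number of genes tested in parentheses and dotted lines at the shares of all tested genes, 19.1% and 22.4%. The integrated stress response and the ribosome biogenesis lists stand at the opposite ends.

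With all 3 non-targeting arrays, the integrated stress response list had the highest median difference of the 23 pathway lists. In this response several kinases phosphorylate eIF2-alpha, translation slows, and the transcription factor ATF4 is made and turns on genes of amino acid supply, redox defence and, later, CHOP. Of 44 tested members 33 were called positive and none negative, with a median of 1.07. The counts were 40 and 0 with array A alone and 31 and 1 with arrays B and C, and 30 were called under all 3 controls. With arrays B and C alone its median was 0.99, below those of PPAR target genes (1.16) and of hypoxia and glycolysis (1.13). With all 3 non-targeting arrays, 11 of the 33 were up with the drug and down with the shRNA, against 530 of all 2539 positive genes. DDIT3, GDF15 and PPP1R15A, described above, led it.

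Among its transcription factors, ATF4 differed by 1.49 (SE 0.15, limma adjusted p = 9.34e-06) through the drug change (1.48, with the shRNA change close to 0). ATF3, a stress-induced partner of CHOP, differed by 3.95 (SE 0.33, limma adjusted p = 2.49e-06), with changes of 1.53 with the drug and -2.42 with the shRNA. TRIB3, a pseudokinase that CHOP induces, differed by 2.69 (SE 0.67, limma adjusted p = 0.0057). CEBPB and CEBPG, bZIP partners of ATF4, differed by 1.16 and 1.05. Enzymes of amino acid supply were positive too. ASNS (asparagine synthetase) differed by 1.86 (SE 0.43, limma adjusted p = 0.00391), CTH (cystathionine gamma-lyase) by 1.62 and PCK2 (mitochondrial PEP carboxykinase) by 1.55. SLC7A11, the cystine carrier, was not detected in UM-UC9CONT cells and had a lower bound of 2.48 (adjusted p = 2.49e-06). CHAC1, which degrades glutathione, was not detected there either and had a lower bound of 1.23 (adjusted p = 0.0379), with an shRNA change of 0.39. The 11 not called include the amino acid carrier SLC7A5 (-0.33) and the tRNA synthetases MARS1 (-0.04), IARS1 (0.28) and WARS1 (0.59). Of these IARS1 (0.48) and WARS1 (1.71) were called with array A alone, and SLC7A5 (-0.52) with arrays B and C alone.

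The composite site that ATF4 binds with C/EBP partners has the core TGATGNAA (N is any base). It was searched on both strands in the 250 bases before each listed gene start (RefSeq, GRCh38.p14, several starts for some genes). It was found in 9 of 59 windows of the 39 tested stress response genes with a listed start (15.3%), against 3.14% of 35116 windows of all genes. The 9 genes with a match had 7 positive calls and the 30 without had 22, with medians of 1.27 and 1.12. The 4 with the largest differences are printed as 60-base stretches, 5′ to 3′ on the gene's strand, with the match in capitals on whichever strand it was found.
ATF3, chr1:212565190-212565249 (+ strand): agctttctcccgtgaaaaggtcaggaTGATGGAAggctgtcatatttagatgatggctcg
ASNS, chr7:97872443-97872502 (- strand): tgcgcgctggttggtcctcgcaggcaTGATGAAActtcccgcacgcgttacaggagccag
CHAC1, chr15:40953236-40953295 (+ strand): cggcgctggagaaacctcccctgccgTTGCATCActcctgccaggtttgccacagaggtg
AARS1, chr16:70289660-70289719 (- strand): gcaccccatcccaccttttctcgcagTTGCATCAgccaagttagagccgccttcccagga
The ATF3 and ASNS matches read along the gene and the CHAC1 and AARS1 matches on the opposite strand. The differences were 3.95 for ATF3, 1.86 for ASNS, at least 1.23 for CHAC1 and 1.47 for AARS1.

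Chaperones of the endoplasmic reticulum had a median difference of 0.34, with 7 of 23 positive and 1 negative. Their median change was -0.13 with the drug and -0.46 with the shRNA. With array A alone 17 were positive and 1 negative, and with arrays B and C alone 5 and 3 with a median of 0.06. DNAJB9 (ERdj4), a co-chaperone of BiP, differed by 2.88 (SE 0.52, limma adjusted p = 0.000731). It measured 7.07, 7.27 and 7.15 on the UM-UC14FABP4KD arrays and 9.74, 9.95 and 7.95 on the UM-UC14NT arrays, array C being well below the other two. ERO1A, an oxidase that refills disulfides, differed by 1.76 (SE 0.20, limma adjusted p = 3.33e-05), and XBP1, a transcription factor of the unfolded protein response, by 1.39 (SE 0.28, limma adjusted p = 0.00153). The abundant chaperones HSPA5 (BiP, 0.09), HSP90B1 (0.31) and CANX (0.12) were not called, but HSP90B1 was with array A alone (0.58). CALR, calreticulin, was the negative one, at -0.84 (SE 0.19, limma adjusted p = 0.00319), and -0.48 with array A alone.

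Genes of hypoxia and glycolysis were also largely positive. Of 37 tested 25 were positive and 3 negative, with a median of 0.92. The counts were 21 and 4 with array A alone and 26 and 3 with arrays B and C. With all 3 non-targeting arrays, 15 of the 25 were up with the drug and down with the shRNA, against 530 of all 2539 positive genes. SLC2A3, the glucose carrier GLUT3, was not detected in UM-UC9CONT cells and had a lower bound of 4.12 with all 3 non-targeting arrays (limma adjusted p = 3.4e-05). Without that bound its difference was 3.27 with array A alone and 4.75 with arrays B and C. HILPDA, a lipid droplet protein induced by low oxygen and by PPARs, differed by 3.63 (SE 0.43, limma adjusted p = 3.84e-05). HILPDA measured 11.61, 11.25 and 11.78 on the UM-UC9ROSIG arrays and 10.50, 10.38 and 10.26 on the UM-UC9CONT arrays, and 9.69, 9.60 and 9.77 on the UM-UC14FABP4KD arrays and 11.15, 12.49 and 12.82 on the UM-UC14NT arrays. The groups did not overlap in either line, and array A gave the smaller UM-UC14 change.

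NDRG1, a stress gene of hypoxia, differed by 3.22 (SE 0.26, limma adjusted p = 1.64e-06), MXI1, a MYC antagonist, by 2.74 (SE 0.21, limma adjusted p = 1.16e-06), and ENO2, an enolase, by 2.72 (SE 0.37, limma adjusted p = 0.000117). VEGFA, the angiogenic growth factor, differed by 1.92 with changes of 0.97 with the drug and -0.95 with the shRNA. Several core glycolytic enzymes did not go along. LDHA (-0.20), ENO1 (0.09) and GAPDH (0.18) were not called, as was HIF1A (-0.19), the oxygen-regulated factor itself. PKM (pyruvate kinase), CA12 (a carbonic anhydrase) and PGAM1 were called negative, at -0.79, -0.66 and -0.54. Other PKM probes gave -0.52, called, and -0.07, not called.

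The core of the hypoxia response element, ACGTG, is short and also lies inside the E-box CACGTG. On either strand it was in 22 of 52 windows of the 32 hypoxia list genes with a listed start (42.3%), against 18.5% of all windows. The 19 genes with a match had 15 positive and 0 negative calls and a median of 0.92, and the 13 without had 5 and 3 and a median of 0.18. The 4 with the largest differences are printed, matches in capitals.
MXI1, chr10:110210090-110210149 (+ strand): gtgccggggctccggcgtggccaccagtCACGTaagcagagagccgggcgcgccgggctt
ENO2, chr12:6914434-6914493 (+ strand): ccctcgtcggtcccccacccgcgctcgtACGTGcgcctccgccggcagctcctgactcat
ANKRD37, chr4:185396651-185396710 (+ strand): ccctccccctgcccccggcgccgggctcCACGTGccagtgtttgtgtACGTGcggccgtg
HK2, chr2:74833877-74833936 (+ strand): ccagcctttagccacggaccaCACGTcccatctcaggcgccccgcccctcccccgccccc
ANKRD37, an ankyrin repeat protein, and HK2, a hexokinase, differed by 2.59 (SE 0.30, limma adjusted p = 2.9e-05) and 2.20 (SE 0.19, limma adjusted p = 3.05e-06). In ANKRD37 one of the matches is also an E-box.

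PPAR target genes mostly had positive differences, as did the oxidation of fatty acids. Of 26 tested PPAR targets 16 were positive and 2 negative, with a median of 1.06, and 15 and 2 were called with array A alone. FABP4 is a member and was itself targeted in UM-UC14. PLIN2, the lipid droplet coat protein, differed by 2.92 (SE 0.15, limma adjusted p = 2.53e-08). PLIN2 measured 13.55, 13.57 and 13.71 on the UM-UC9ROSIG arrays and 12.00, 11.92 and 11.98 on the UM-UC9CONT arrays, and 10.08, 10.05 and 10.00 on the UM-UC14FABP4KD arrays and 11.07, 11.44 and 11.45 on the UM-UC14NT arrays. Every UM-UC9ROSIG array was above the UM-UC9CONT arrays and every UM-UC14FABP4KD array was below the UM-UC14NT arrays, and a second probe gave 3.20.

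PDK4, a kinase that restrains pyruvate dehydrogenase, was not detected in UM-UC14FABP4KD cells and differed by at least 2.06 (limma adjusted p = 1.76e-05). AQP3, a glycerol channel, differed by 2.26 (SE 0.23, limma adjusted p = 1.27e-05) and ANGPTL4, an inhibitor of lipoprotein lipase, by 1.48 (SE 0.32, limma adjusted p = 0.0024). Their shRNA changes were -1.0 and -0.62, and ANGPTL4 differed by 0.91 with array A alone. CD36, a fatty acid carrier, was detected in UM-UC9 cells and in neither UM-UC14 group, so its 3.46 (adjusted p = 1.67e-09) rests on a drug change of 3.48. FABP5, the epidermal relative of FABP4, and TXNIP were the negative members, FABP5 at -0.42 (SE 0.12, limma adjusted p = 0.0134). Other FABP5 probes gave -0.19 and -0.31 and were not called. CPT1A, the gatekeeper of mitochondrial oxidation and a target in many cells, was not detected in UM-UC9 cells.

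In fatty acid oxidation and carnitine handling 23 of 33 tested genes were positive and 3 negative, with a median of 0.63. The list's median change was 0.60 with the drug and 0.01 with the shRNA. With rosiglitazone 24 members were called up and 2 down, and with FABP4 shRNA 3 were called up and 4 down. The shares of all tested genes, both directions together, were 36% with rosiglitazone and 26.3% with FABP4 shRNA. ACADM, the medium-chain acyl-CoA dehydrogenase, differed by 1.76 (SE 0.18, limma adjusted p = 1.26e-05). ACADM measured 12.00, 11.96 and 11.95 on the UM-UC9ROSIG arrays and 10.81, 10.63 and 10.79 on the UM-UC9CONT arrays, and 9.46, 9.63 and 9.59 on the UM-UC14FABP4KD arrays and 9.76, 10.17 and 10.34 on the UM-UC14NT arrays. The groups were apart in both lines. DECR1 (1.39) and CRAT (1.32), enzymes of oxidation and carnitine transfer, were called, with shRNA changes of -0.29 and -0.06. ACAA2, a thiolase, was not detected in UM-UC14FABP4KD cells and differed by at least 1.06. ACOT2, a thioesterase, was detected in neither UM-UC14 group and had a drug change of 1.41. BBOX1, the last enzyme of carnitine synthesis, was detected in UM-UC9 cells and in neither UM-UC14 group, so its 3.69 (adjusted p = 2.56e-09) rests on a drug change of 3.71. CROT, SLC22A5 (the carnitine transporter) and SLC25A20 (the carnitine carrier of mitochondria) were negative, at -0.98, -0.65 and -0.47, SLC25A20 not called with array A alone.

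Genes of lipid storage and synthesis were called on both sides. Of the lipid droplet and lipolysis genes 31.6% were called, and of the fatty acid and triglyceride synthesis genes 53.8%. The share of all tested genes was 41.5%. Of 19 lipid droplet and lipolysis genes 5 were positive and 1, LIPG, was negative, but 3 were negative with array A alone and with arrays B and C alone, and 4 under median scaling. Of 26 genes of fatty acid and triglyceride synthesis 6 were positive and 8 negative, with a median of -0.17, and 0.02 with array A alone. Under median scaling 2 were positive and 9 negative. The negative ones included FASN, fatty acid synthase, at -0.84 (SE 0.12, limma adjusted p = 0.000192), and ACACA, acetyl-CoA carboxylase, at -0.88 (SE 0.13, limma adjusted p = 0.000164). FASN's changes were 0.18 with the drug and 1.02 with the shRNA. GPAT3, a glycerol phosphate acyltransferase, was lowest. GPAT3 measured 7.60, 7.70 and 7.31 on the UM-UC9ROSIG arrays and 8.49, 8.66 and 8.38 on the UM-UC9CONT arrays, and 9.82, 9.76 and 9.74 on the UM-UC14FABP4KD arrays and 9.07, 9.03 and 9.14 on the UM-UC14NT arrays. Its groups overlapped in neither line, and the difference was -1.67 (SE 0.16, limma adjusted p = 6.4e-06). On the positive side stood ELOVL7, a fatty acid elongase (1.17, and 0.75 with array A alone), and LPIN2, a phosphatidate phosphatase (0.76).

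Sterol efflux and oxysterol-binding genes had 9 positive calls and 1 negative, OSBP2, of 19 tested, with 6 and 1 with array A alone, 10 and 3 with arrays B and C alone and 4 and 2 under median scaling. ABCG1, which exports cholesterol, differed by 2.75 (SE 0.17, limma adjusted p = 1.37e-07), with changes of 1.69 with the drug and -1.06 with the shRNA, but its 4 other probes gave 2.86, 1.10, 0.14 and 0.11, the last pair not called. ABCA1, the partner transporter, differed by 0.94 (SE 0.15, limma adjusted p = 0.000397).

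Of the 23 pathway lists, cholesterol synthesis and uptake held the largest share of genes whose changes were alike. Likeness was called where both changes passed the test in the same direction and the 95% interval of their difference lay within 1.5-fold either way. Of all genes 200 met this (1.5%), 107 upward and 93 downward. Of the 20 tested genes of cholesterol synthesis and uptake 5 met it (4 with array A alone and 6 with arrays B and C alone), and the list's median changes were 0.58 with the drug and 0.56 with the shRNA. MSMO1, a sterol methyl oxidase, measured 11.20, 11.17 and 11.22 on the UM-UC9ROSIG arrays and 10.13, 10.36 and 10.35 on the UM-UC9CONT arrays. On the UM-UC14FABP4KD arrays it was 10.44, 10.44 and 10.61, against 9.26, 9.78 and 9.61 on the UM-UC14NT arrays. The treated groups were above their controls in both lines, and the difference was -0.04 (95% interval -0.41 to 0.34). Of its other probes one gave 0.01 and one 0.51, the second called. HMGCS1, an early enzyme and also alike, had changes of 0.61 with the drug and 0.65 with the shRNA, but a called difference of 0.45 with array A alone. INSIG1, the sterol-sensing retention protein, had changes of 1.57 with the drug and 1.39 with the shRNA and was not counted as alike, its interval being -0.36 to 0.72. The share with a called difference was near that of all genes, with 4 positive and 4 negative of 20, and 4 and 1 with array A alone, 4 and 6 with arrays B and C alone and 3 and 8 under median scaling. The largest were INSIG2, a relative of INSIG1 (1.77), and TM7SF2, a sterol reductase (1.40), both positive, and LSS, lanosterol synthase (-0.67), and PMVK, phosphomevalonate kinase (-0.67, not called at -0.48 with array A alone), both negative. SC5D (0.82), ACAT2 (0.50), SQLE (-0.40) and NSDHL (-0.49), further enzymes of the pathway, were the others. 2 other LSS probes gave 0.13 and -0.25 and were not called.

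Outside that list, the genes alike with the largest upward changes included SCD, the stearoyl-CoA desaturase, with 1.05 with the drug and 0.79 with the shRNA and a difference interval of -0.03 to 0.53. CLTCL1, a clathrin heavy chain, and UAP1L1 followed with differences of -0.13 and -0.16, but another UAP1L1 probe gave 0.96 and was called. Those alike with the largest downward changes were UBE2L6, PLAAT4, CASP4 and CLDN1. UBE2L6, the conjugating enzyme for ISG15, changed by -1.17 with the drug and -1.13 with the shRNA, with an interval of -0.40 to 0.33. PLAAT4, a retinoid-inducible phospholipase, changed by -1.04 with the drug and -1.13 with the shRNA. CLDN1, a tight junction protein, changed by -0.98 with the drug and -0.71 with the shRNA. CASP4, an inflammatory caspase, changed by -0.92 with the drug and -0.80 with the shRNA, but another of its probes gave a called difference of -1.0.

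**Figure D5:**
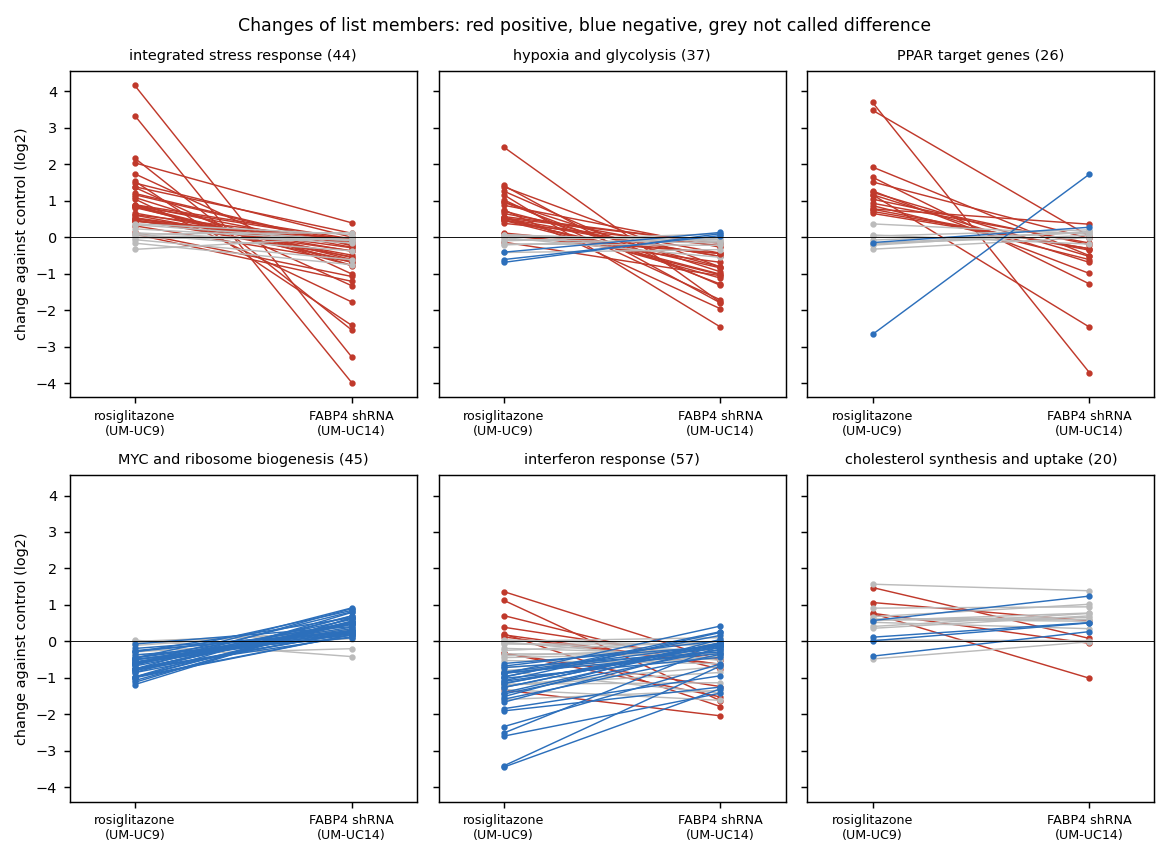
Each line joins a gene's drug change in UM-UC9 (left) to its shRNA change in UM-UC14 (right), in log2 units, for the tested members of 6 lists, red for a called positive difference, blue for a called negative one and grey for none. Many lines cross zero downward in the stress and hypoxia lists and upward in the ribosome list, and most in the cholesterol list lie above zero at both ends.

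Genes of the MYC and ribosome biogenesis list mostly had negative differences. MYC drives many genes that make and process ribosomal RNA in the nucleolus, and the list also holds others, such as SRM and ODC1. Of 45 tested members 39 were negative and none positive, with a median of -1.0. With array A alone 36 were negative and 1 positive, and with arrays B and C 41 and 0. Under all 3 controls 35 were called. With all 3 non-targeting arrays, 19 of the 39 were down with the drug and up with the shRNA, against 660 of all 2981 negative genes. GRWD1, a ribosome assembly chaperone, differed by -1.83 (SE 0.26, limma adjusted p = 0.000126). GRWD1 measured 9.03, 9.01 and 8.63 on the UM-UC9ROSIG arrays and 9.99, 10.09 and 10.13 on the UM-UC9CONT arrays, and 9.78, 9.73 and 9.88 on the UM-UC14FABP4KD arrays and 9.67, 8.94 and 8.83 on the UM-UC14NT arrays. The UM-UC9 groups did not overlap, and non-targeting array A lay just below the UM-UC14FABP4KD arrays with B and C further down.

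SRM, spermidine synthase, differed by -1.77 (SE 0.38, limma adjusted p = 0.00267) and by -0.85 with array A alone and -2.23 with arrays B and C, so its size depended on the control. Its shRNA change was -0.12 with array A alone and 1.25 with arrays B and C, so its direction in UM-UC14 did too. RRP12, NOP56 and POLR1B, factors of ribosomal RNA export, modification and transcription, differed by -1.76, -1.53 and -1.60. NCL, nucleolin, differed by -1.0 and ODC1, ornithine decarboxylase, by -1.65 (-0.77 with array A alone). MYC itself was not called, at -0.37 (SE 0.17, limma adjusted p = 0.107), but was with array A alone (-0.66). The E-box CACGTG, which MYC and other factors bind, was in 9 of 48 windows of 36 members (18.8%), against 6.34% of all windows. Of the 9 genes with it 7 were negative and of the 27 without it 25.

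Genes of DNA replication leaned the same way, with 22 of 42 negative, 3 positive and a median of -0.43. With array A alone 14 were negative. CDC25A, the phosphatase that opens S phase, differed by -2.33 (SE 0.30, limma adjusted p = 7.92e-05), and MCM10, a replication initiation factor, by -1.35 (SE 0.19, limma adjusted p = 0.000152). CDC25A differed by -1.68 with array A alone and -2.65 with arrays B and C. PCNA, the sliding clamp, was at -0.71. PRIM1, a primase subunit, was positive at 0.70. Genes of mitosis had 13 positive and 6 negative calls of 52, but 20 and 6 with arrays B and C alone and 3 and 8 under median scaling. CDC25C differed by 1.09 (SE 0.13, limma adjusted p = 4.95e-05) and BUB1, a checkpoint kinase, by 0.72 (0.48 with array A alone). BIRC5 (survivin) was at -0.97 (SE 0.22, limma adjusted p = 0.00301), and -0.53 with array A alone. Subunits of oxidative phosphorylation were mostly not called (3 positive, 8 negative of 51, and 1 and 10 under median scaling), and 6 of them were alike. CYCS, cytochrome c, was the lowest at -1.48 (SE 0.19, limma adjusted p = 6.35e-05).

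Interferon response genes leaned to the negative side, with members on both. Of 57 tested 28 were negative and 10 positive, with a median of -0.43 and nearly the same counts under each control (28 and 9, and 29 and 11). With rosiglitazone 39 were called down and 4 up, and with FABP4 shRNA 28 down and 1 up. Of all tested genes 36% were called with rosiglitazone and 26.3% with FABP4 shRNA, both directions together. IFI44L, an interferon-induced protein, differed by -2.74 (SE 0.17, limma adjusted p = 1.74e-07). IFI44L measured 6.70, 6.57 and 6.67 on the UM-UC9ROSIG arrays and 10.26, 10.13 and 9.79 on the UM-UC9CONT arrays, and 5.99, 5.95 and 5.71 on the UM-UC14FABP4KD arrays and 6.56, 6.47 and 6.63 on the UM-UC14NT arrays. Both treated groups were below their controls without overlap. IFI44, a relative (-2.39), and ISG15, a ubiquitin-like modifier (-1.72), followed. OAS2, an RNA sensor, was not detected in UM-UC14FABP4KD cells, so its difference has no bound, and its drug change was -3.45.

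MX1, a GTPase that blocks virus replication, went the other way at 2.76 (SE 0.42, limma adjusted p = 0.000227), with changes of 1.13 with the drug and -1.63 with the shRNA. Its difference was 1.84 with array A alone and 3.21 with arrays B and C. IFIT2, an RNA-binding effector, was at 1.99 (SE 0.24, limma adjusted p = 3.72e-05) through its shRNA change. EPSTI1 (1.88), IRF1, an interferon regulatory factor (1.47), and ISG20, an exonuclease (1.21), were also positive. The IFITM genes have near-identical copies and their probes may not tell them apart.

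The interferon-stimulated response element was searched as TTTC, any 2 bases and TTTC, on both strands. It was in 33 of 62 windows of 47 members (53.2%), against 3.02% of all windows. The 29 genes with it had 18 negative and 5 positive calls (median -0.58), and the 18 without had 5 and 3 (median -0.15). Genes on both sides carry it, and the 3 largest each way are printed, negative first, matches in capitals.
IFI44L, chr1:78620259-78620318 (+ strand): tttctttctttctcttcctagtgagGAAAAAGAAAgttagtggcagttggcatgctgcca
IFI44, chr1:78649729-78649788 (+ strand): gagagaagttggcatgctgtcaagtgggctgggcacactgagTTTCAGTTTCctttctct
ISG15, chr1:1013359-1013418 (+ strand): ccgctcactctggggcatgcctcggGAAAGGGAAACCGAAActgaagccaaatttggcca
MX1, chr21:41431829-41431888 (+ strand): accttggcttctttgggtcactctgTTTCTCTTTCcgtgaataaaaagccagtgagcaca
EPSTI1, chr13:42992257-42992316 (- strand): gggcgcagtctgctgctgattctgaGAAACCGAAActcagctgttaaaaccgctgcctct
ISG20, chr15:88638922-88638981 (+ strand): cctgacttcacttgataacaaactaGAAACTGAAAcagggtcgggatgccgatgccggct
In IFI44L and ISG15 the window held 2 matches, of which those within the printed stretch are in capitals.

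Luminal differentiation genes of the urothelium were mostly positive. Of 36 tested 23 were positive and 3 negative, with a median of 0.97, and 21 and 4 with array A alone. HPGD led. TRIM31, a ubiquitin ligase, differed by 2.61 (SE 0.19, limma adjusted p = 8.45e-07) and ELF3, an epithelial transcription factor, by 2.47 (SE 0.31, limma adjusted p = 5.38e-05) with changes of 0.87 with the drug and -1.60 with the shRNA. Another TRIM31 probe gave only 0.55. UPK1B, a uroplakin of the bladder surface, differed by 1.87 (SE 0.17, limma adjusted p = 5.53e-06), and PSCA, a surface antigen, by 1.94. KRT20, the keratin of umbrella cells, had a drug change of 1.73 and was not detected on any UM-UC14NT array, so its difference has no bound. GATA3, a luminal transcription factor, was at 1.04 (SE 0.24, limma adjusted p = 0.00422), and 0.55 with array A alone. FOXA1, another, was not called (-0.58) except with array A alone (-1.05). KRT13 was called negative, but was not detected in UM-UC9ROSIG cells and on only 1 UM-UC9CONT array. Its drug change was therefore not measured, and its shRNA change was 0.53. KRT8 was called at -0.71 and not with array A alone (-0.17).

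Basal and squamous genes had 9 negative and 5 positive calls of 20, with a median of -0.32, and 10 and 3 with array A alone and 9 and 2 under median scaling. Beside KRT5 and S100A8, CD44, a hyaluronan receptor, differed by -2.41 (SE 0.12, limma adjusted p = 1.85e-08) and S100A9, the partner of S100A8, by -1.32 (SE 0.14, limma adjusted p = 1.43e-05). EGFR, the epidermal growth factor receptor, was positive at 0.94 (SE 0.12, limma adjusted p = 6.55e-05), with changes of 0.19 with the drug and -0.75 with the shRNA. Another EGFR probe gave 0.53 and was not called. The other positive members were ITGB4, KRT16 (0.86), ITGA6 and TRIM29. Keratins were thus on both sides, KRT4 and KRT6C being called negative like KRT5. KRT14 was not called (-0.42), with changes of 1.61 with the drug and 2.03 with the shRNA, but was with arrays B and C alone (-0.72). Cornified envelope genes had 11 negative and 6 positive calls of 25. TGM2, a transglutaminase, differed by -2.85 (SE 0.28, limma adjusted p = 9.18e-06) with a drug change of -3.21. Other TGM2 probes gave -2.44 and -0.93. SCEL, sciellin, was detected in neither UM-UC14 group and had a drug change of -2.31. CLCA4 was not detected in UM-UC9 cells, and its 2.97 (SE 0.42, limma adjusted p = 0.000138) rests on an shRNA change of -2.95 (the difference was 1.94 with array A alone). CSTA, cystatin A, was likewise detected in UM-UC14 cells alone, with an shRNA change of -1.33.

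Inflammatory mediators of the NF-kB list went both ways, 12 positive and 9 negative of 32. IL6 was detected in UM-UC9 cells and in neither UM-UC14 group, so its -2.60 (adjusted p = 9.21e-07) rests on a drug change of -2.83. PTGS2, cyclooxygenase-2, was at -1.23 (SE 0.24, limma adjusted p = 0.00134). LCN2, lipocalin 2, an iron-binding defence protein, differed by 3.17 (SE 0.17, limma adjusted p = 4.2e-08). LCN2 measured 14.85, 14.62 and 14.73 on the UM-UC9ROSIG arrays and 14.96, 14.98 and 14.96 on the UM-UC9CONT arrays, and 9.03, 8.98 and 9.22 on the UM-UC14FABP4KD arrays and 12.74, 12.45 and 12.24 on the UM-UC14NT arrays. In UM-UC9 the drug arrays lay just below the controls, and in UM-UC14 the groups were over 3 units apart. CXCL8, the chemokine interleukin-8, differed by 2.78 (SE 0.55, limma adjusted p = 0.00138), and by 1.61 with array A alone and 3.37 with arrays B and C.

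Immediate early and ERK output genes were divided as well, with 15 positive and 12 negative of 38, and 13 and 18 with array A alone. DUSP1, a phosphatase of MAP kinases, differed by 3.30 (SE 0.31, limma adjusted p = 5.54e-06) and MAFF, a small Maf factor, by 2.58 (SE 0.38, limma adjusted p = 0.000182). MAFF differed by 1.73 with array A alone and 3.00 with arrays B and C, and another MAFF probe gave only 0.83. PHLDA2 was at -2.34 (SE 0.48, limma adjusted p = 0.00185), but -1.17 with array A alone and -2.93 with arrays B and C. CCND1, cyclin D1, was at -1.91 (SE 0.20, limma adjusted p = 1.6e-05). It measured 12.83, 13.02 and 12.48 on the UM-UC9ROSIG arrays and 14.26, 14.31 and 14.31 on the UM-UC9CONT arrays. On the UM-UC14FABP4KD arrays it averaged 12.98 ± 0.02, against 12.59 ± 0.27 on the UM-UC14NT arrays (SD, n = 3). The drug arrays were below their controls, and the UM-UC14 arrays were close, array A of UM-UC14NT lying nearest to the knockdown.

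The NRF2 and glutathione list had 17 positive and 1 negative calls of 31, with a median of 0.46, and 18 and 4 with arrays B and C alone and 14 and 4 under median scaling. GCLC, the catalytic subunit of glutathione synthesis, differed by 1.5 (SE 0.17, limma adjusted p = 3.33e-05) with changes of 0.53 with the drug and -0.97 with the shRNA. Another GCLC probe gave 0.67. AKR1B10, an aldo-keto reductase, was not detected in UM-UC9CONT cells and differed by at least 1.28 (limma adjusted p = 8.77e-06). HMOX1, heme oxygenase, differed by 1.14 (SE 0.27, limma adjusted p = 0.00399). SRXN1, sulfiredoxin, was the negative one at -0.62 (SE 0.23, limma adjusted p = 0.0395) and not with array A alone (-0.24). TXNRD1, thioredoxin reductase, was -0.57 with the drug and -0.53 with the shRNA. Retinoid, xenobiotic and steroid genes had 13 positive and 4 negative calls of 30, with a median of 0.49, and 0.15 with array A alone. With arrays B and C alone 15 were positive and 6 negative. CYP4F12 and CYP2J2, fatty acid hydroxylating cytochromes, differed by 1.82 and 2.37, and CRABP2, a retinoic acid carrier, by -1.35 (SE 0.23, limma adjusted p = 0.000507).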

How the data were processed

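Expression was measured with Illumina HumanHT-12 bead arrays, 1 array per sample. The deposited table held raw probe intensities, not normalized, with a detection p-value per probe, both as the authors exported them per the file headers, and the series matrix held the authors' log2 values. These authors' log2 values matched quantile-normalized log2 raw intensities to within 0.0106, so no background had been subtracted. Here the raw intensities were background-corrected and quantile-normalized with limma's neqc (limma 3.58.1, R 4.3.3, offset 16), using the detection p-values to estimate the negative controls. Of 47323 probes, 25176 were kept, those that 3 or more of the 12 arrays detected at p below 0.05. Symbols came from the platform annotation, updated through Entrez IDs to RefSeq GRCh38.p14: 30113 probes named 1 gene, 8 several and 17202 none, and 30074 matched. Each gene was read from its brightest kept probe, and probes are not compared with each other.

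A limma model with 1 mean per group over all 12 arrays (8 residual degrees of freedom, 5.43 added by the prior) gave the difference, with Benjamini-Hochberg adjustment over 13293 genes. Where a group was not detected on any array, a bound was taken from the dimmest detected signal. Bounds used all 3 non-targeting arrays and cover neither the choice of control nor the spread between arrays. On simulated data for these genes the fit recovered 69% of 100 differences of 1 log2 unit and 96% of 100 of 2 units. It made 10 false calls, 5.71% of its calls. The simulation planted far fewer differences than the 5520 called in the data and gave all groups of a gene the same spread. It therefore does not give the share of false calls among the 5520. Named genes were FABP4 and PPARG, the 10 largest differences each way called under all 3 controls, the 5 largest each way that were not, up to 2 each way per list, and the 4 largest alike each way. Other members of a list are given to show its range. The members and lists were chosen with earlier results of these data known. Alternatives were background correction, scaling, the authors' values, detection filters, probe choice, array weights, variance prior, replicate block, the control arrays and leaving out each array. The number of arrays limits the precision. Same-numbered arrays' deviations correlated between -0.04 and 0.15, so the numbers were not taken to pair samples.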

Additional observations from a re-analysis of the deposited data

Results flagged for a closer look

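The response to rosiglitazone in UM-UC9 and the response to FABP4 shRNA in UM-UC14 differed, by the limma test of the difference itself, for 5520 of 13293 genes (41.5%). It is listed because the change in one cell line differed from the change in the other, and the agents and exposures differed too.

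Signal was also found in probes that the comparisons by gene did not use. Of 6792 detected probes to which the annotation gives no gene, 1645 (24.2%) had a called difference in the same test, 730 positive and 915 negative. Their genes are not named here.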

How the results depend on the processing

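The number of genes with a called difference stayed within 1.5 times of 5520 under every alternative run, from 4684 with non-targeting array A as the only control to 6753 with arrays B and C alone. Leaving out each array in turn gave 4747 to 6753. Scaling to a common median called 5575, of which 1843 were positive and 3732 negative, against 2539 and 2981. The number of genes alike in both responses depended more on the settings. It was 200, and 375 with array weights, 347 with non-targeting arrays B and C alone, and 124 to 347 when each array was left out. The highest of these was without UM-UC14NT replicate 1, and the lowest without UM-UC14FABP4KD replicate 3, while 126 and 129 were left without UM-UC9CONT replicate 1 and UM-UC14FABP4KD replicate 1. The cause was not tested. With the replicate number as a replicate block 5281 genes were called and 159 were alike, a change of less than 1.5 times, and the numbers share no stated source. Of 2544 recomputed differences of the 107 named genes over 24 settings, none that was called changed direction and 2456 kept their side of the threshold. Of those not called, 19 crossed 0, in 6 genes alike in both responses. The 82 that lost the call included 15 with array A alone, and 6 gained it. Of 46 counts of list members called, 12 moved by over 1.5 times with median scaling, 10 when detection on all 12 arrays was required, and 7 each with array A alone and with arrays B and C alone. Another probe was kept for 1686 of the called genes, and for 1399 of them all other probes had the same sign. In 761 called genes 1 or more groups were not detected on any array, so the size of their difference is limited by background.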

Other observations

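Target genes of p53, the tumour suppressor that answers DNA damage and other stress, gave a divided picture. Of 23 tested 9 had a positive and 4 a negative difference, with a median of 0.24, and under median scaling 7 and 7. GADD45A, a growth arrest gene also induced by ATF4, measured 9.65, 9.47 and 9.69 on the UM-UC9ROSIG arrays and 8.72, 8.77 and 8.48 on the UM-UC9CONT arrays. On the UM-UC14FABP4KD arrays it was 8.87, 8.91 and 8.75, against 10.34, 10.98 and 9.53 on the UM-UC14NT arrays. The groups overlapped in neither line, and the difference was 2.39 (SE 0.35, limma adjusted p = 0.000196). PMAIP1, the cell death protein NOXA, differed by 1.66, whereas CDKN1A, the cell cycle inhibitor p21, was at -0.77 (SE 0.14, limma adjusted p = 0.00095) and MDM2, the ligase that degrades p53, was not called (0.44). AEN, a nuclease, and ZMAT3, an RNA-binding protein, were negative at -1.38 and -0.97, with -0.91 for AEN and -0.59, not called, for ZMAT3 with array A alone.

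Proteases of invasion and matrix, and their inhibitors, also went both ways, with 7 positive and 5 negative calls of 27 and a median of -0.02. The share called, 44.4%, was near the 41.5% of all tested genes. The counts were 4 and 6 with array A alone, 8 and 8 with arrays B and C alone and 6 and 9 under median scaling. CTSV, a lysosomal cathepsin, differed by 1.75 (SE 0.16, limma adjusted p = 5.13e-06), and CTSD, another, by 1.06. SERPINE2, a protease inhibitor, was at -1.79 (SE 0.18, limma adjusted p = 1.18e-05), with changes of -0.55 with the drug and 1.23 with the shRNA. TIMP4, an inhibitor of metalloproteinases, was detected in UM-UC9 cells and in neither UM-UC14 group, so its -1.22 (limma adjusted p = 4.43e-05) rests on a drug change of -1.28. ADAM9, a membrane protease, was called at 1.11 but was not called at 0.34 with array A alone. MMP2, a gelatinase, and MMP14, its activator, were not detected on any UM-UC9 array, so their -0.36 and 0.54 set UM-UC14 changes against background.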
